A study of Homo sapiens with 2 samples.

Results

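The genes described here encode innate pattern recognition receptors and their closest signalling partners, and the question was where peaks of GFI1 chromatin immunoprecipitation lay around them. The set held 37 genes, taken by name out of 20037 protein-coding genes on the primary chromosomes of hg38. A peak was counted for a gene when its midpoint fell inside the gene span or within 10 kb of it, and again within 50 kb. The study sequenced immunoprecipitated chromatin of the line NB4, established from acute promyelocytic leukemia and carrying the PML-RARA fusion, after formaldehyde fixation and with no other treatment named in the labels. There were 2 libraries, 1 per antibody, both labelled as against GFI1: ab21061, with 7687 peaks, and sc8558, with 7562. Neither had a replicate, so every value below describes these libraries and no test between antibodies was made.

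Some labels disagree. The immunoprecipitation protocol of both libraries names antibodies against PML/RARα, whereas the antibody labels and the design name GFI1, and the sc8558 library is titled GFI2. Antibody labels were followed. Peak lists hold no expression values, so the labelled cell type could not be set against its markers. Sequencing depth is unknown.

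GFI1 is a zinc-finger repressor of blood cells that binds DNA at sites with an AATC core and recruits histone-modifying corepressors. In mice, loss of Gfi1 is known to exaggerate the inflammatory response to bacterial endotoxin. The receptors fall into families by what they sense and where. Toll-like receptors at the cell surface sense bacterial lipids and proteins, and those in endosomes sense nucleic acids. NOD-like receptors and the PYHIN family act in the cytosol and nucleus, several of them by building inflammasomes, which activate caspases. C-type lectin receptors bind sugars, lipids and damaged cells. Most Toll-like receptors signal through the adaptor MYD88 and kinases of the IRAK family.

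Peaks lay over an annotated promoter of 5 of the 25 genes that had a promoter window. The RefSeq table of promoters (GRCh38.p14), which gives 250 bases before and 50 after a transcript start, matched 25 of the 37 genes with 29 windows. The remaining genes, among them TLR1, TIRAP and LY96, had no window, so peaks over their promoters could not be read in this way. A peak of ab21061 overlapped a window of 4 of the 25 genes (16%), where 2.48% of all 15843 protein-coding genes with a window had one. For sc8558 it was also 4 of 25 (16%), where the share of all genes was 2.59%. Overlapping peaks of both antibodies covered a window of 3 of the 25 genes (12%), where the share of all genes was 1.8%. Taking either list it was 5 of 25 genes, where the share of all genes was 3.26%. The 3 with both were AIM2, IFI16 and TLR6, NLRP12 had an ab21061 peak only, and CLEC12A an sc8558 peak only.

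The windows of these 5 genes are shown because peaks lay over them, all 300 bases in each except TLR6, where ab21061 covered 214 and sc8558 182. They run 5′ to 3′ on the strand of the gene, with capitals marking AATC, or GATT where the core lies on the opposite strand.
AIM2, chr1:159076717-159077016, minus strand: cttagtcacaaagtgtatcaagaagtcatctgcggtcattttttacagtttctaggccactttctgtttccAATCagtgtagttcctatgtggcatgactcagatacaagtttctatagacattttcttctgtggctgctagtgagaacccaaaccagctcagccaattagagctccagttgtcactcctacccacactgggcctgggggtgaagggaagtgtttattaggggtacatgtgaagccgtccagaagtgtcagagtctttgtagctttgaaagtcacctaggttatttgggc
IFI16, chr1:159009657-159009956, plus strand: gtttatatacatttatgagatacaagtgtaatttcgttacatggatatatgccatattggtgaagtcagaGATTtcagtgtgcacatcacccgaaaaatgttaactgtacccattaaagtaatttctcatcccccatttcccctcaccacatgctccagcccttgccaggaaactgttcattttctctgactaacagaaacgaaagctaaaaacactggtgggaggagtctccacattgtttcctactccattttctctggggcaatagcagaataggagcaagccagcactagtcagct
TLR6, chr4:38856768-38857067, minus strand: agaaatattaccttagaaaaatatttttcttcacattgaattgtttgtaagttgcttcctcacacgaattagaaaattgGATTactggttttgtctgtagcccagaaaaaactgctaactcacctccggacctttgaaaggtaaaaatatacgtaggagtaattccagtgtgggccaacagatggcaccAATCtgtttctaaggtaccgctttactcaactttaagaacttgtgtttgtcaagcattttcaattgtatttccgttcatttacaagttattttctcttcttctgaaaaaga
NLRP12, chr19:53824265-53824564, minus strand: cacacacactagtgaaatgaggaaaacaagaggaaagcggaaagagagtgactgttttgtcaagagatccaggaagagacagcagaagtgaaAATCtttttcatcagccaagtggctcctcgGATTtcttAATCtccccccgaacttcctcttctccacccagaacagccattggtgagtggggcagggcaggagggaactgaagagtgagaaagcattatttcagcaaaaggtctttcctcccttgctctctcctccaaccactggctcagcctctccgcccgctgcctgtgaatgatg
CLEC12A, chr12:9971159-9971458, plus strand: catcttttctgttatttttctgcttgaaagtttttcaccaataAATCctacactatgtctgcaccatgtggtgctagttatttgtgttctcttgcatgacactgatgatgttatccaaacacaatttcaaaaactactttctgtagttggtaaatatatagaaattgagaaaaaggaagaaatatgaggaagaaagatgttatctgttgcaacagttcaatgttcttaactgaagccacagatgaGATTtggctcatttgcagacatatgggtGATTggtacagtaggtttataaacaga

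The AATC core occurred in all 5 of these windows. AIM2 and IFI16 had 1 match each, TLR6 had 2, and NLRP12 and CLEC12A had 3. Such a short core recurs often, and 65.1% of the 22183 windows of protein-coding genes held AATC on either strand, as did 22 of the 29 windows of the set. A longer form of the GFI1 site, AAATCAC, which contains the core, was in 2.65% of all windows and in 1 of the 29, that of TLR8. None of the windows under a peak held it.

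Letters of other factors of blood cells were searched in the same way. The AP-1 site TGANTCA lay at bases 96 to 102 of the AIM2 window and was in 3 of the 29 windows and 6.15% of all. In NLRP12, the PU.1 site GAGGAAGT lay on the opposite strand at bases 144 to 151, and the C/EBP site TTGCNNAA, also on the opposite strand, at bases 222 to 229. These letters were in 4 and 6 of the 29 windows, and in 2.64% and 8.69% of all windows. The RUNX site TGTGGT lay in the windows of CLEC12A, at bases 67 to 72, and of IFI16, at bases 146 to 151 on the opposite strand, and was in 5 of the 29 windows and 11.3% of all. Such matches are letters in a window and do not mark a bound site.

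Across the set, 20 of the 37 genes had a peak of either list within 10 kb (54.1%), where 21.7% of all protein-coding genes did. With ab21061 the count was 14 genes (37.8%), where the share of all genes was 17.4%. With sc8558 it was 17 genes (45.9%), where the share of all genes was 17.8%. Overlapping peaks of both antibodies, called shared regions here and counted from 1 bp of overlap, lay within 10 kb of 11 genes (29.7%), where the share of all genes was 12.8%. Each share of the set was above that of all genes, a description of the lists with no test.

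Within 50 kb the shares of the set were again above those of all genes. A peak of either list lay near 28 of the 37 genes (75.7%; all genes 38.3%). There were 24 genes (64.9%) with ab21061, where 31.7% of all genes had a peak, and 24 with sc8558, where 32.4% did. Shared regions lay near 17 genes (45.9%), where the share of all genes was 24.3%.

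Gene length bears on such counts. The genes of the set had a median span of 30591 bp and ranged up to 108466 bp, where the median over protein-coding genes was 24115 bp. Among protein-coding genes within the length range of the set, 13.9% had an ab21061 peak within 10 kb, 14.3% an sc8558 peak, 17.7% a peak of either list and 10.1% a shared region. Within 50 kb those shares were 29.4%, 30.1%, 35.9% and 22.5%. That range, 1275 to 108466 bp, only leaves out shorter and longer genes and does not match the spread of lengths in the set. These shares therefore do not adjust for the longer median span of the set. The windows of the set are not independent, because neighbouring genes share peaks, so distinct peaks were also counted per length of merged window. Within 10 kb the set had 22 ab21061 peaks in 2.03 Mb, or 10.8 per Mb (95% counting interval 6.79 to 16.4), where all protein-coding genes had 2.90 per Mb. The sc8558 list gave 21 peaks, or 10.3 per Mb (6.40 to 15.8), where all genes also had 2.90. Within 50 kb both lists had 33 peaks, or 7.32 per Mb (5.04 to 10.3), where all genes had 2.86 per Mb in each. The intervals cover counting error only.

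**Figure D1:**
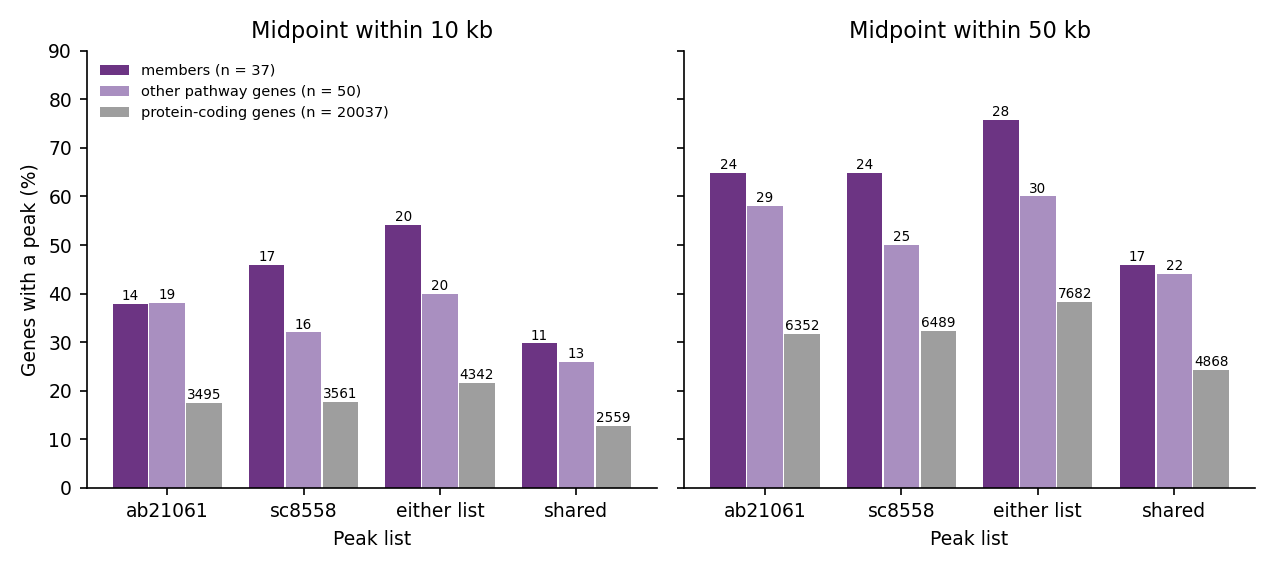
Share of genes with a peak midpoint within 10 kb (left) or 50 kb (right), in percent, for the 37 genes of the set (members), 50 other genes of the same pathways and 20037 protein-coding genes. Numbers above bars count genes. Bars for the set stand above those for all protein-coding genes for each list, for either list and for shared regions.

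Scores around the set were ordinary for their lists. The score is the peak caller's own value for each peak and is read only within a list. The 22 ab21061 peaks within 10 kb had a median score of 87.8, between 52.7 and 521, where the whole list had a median of 82.4. The 21 sc8558 peaks had a median of 84.0, between 50.5 and 763, where the whole list had 81.7. Of the 22 ab21061 peaks, 14 were overlapped by the other list (63.6%, exact Clopper-Pearson 95% interval 40.7 to 82.8), where 63.7% of the whole list was. Of the 21 sc8558 peaks it was 15 (71.4%, 47.8 to 88.7), where 65.0% of the whole list was. The set thus had more peaks per length of window than genes at large, of about the usual score and overlap.

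**Figure D2:**
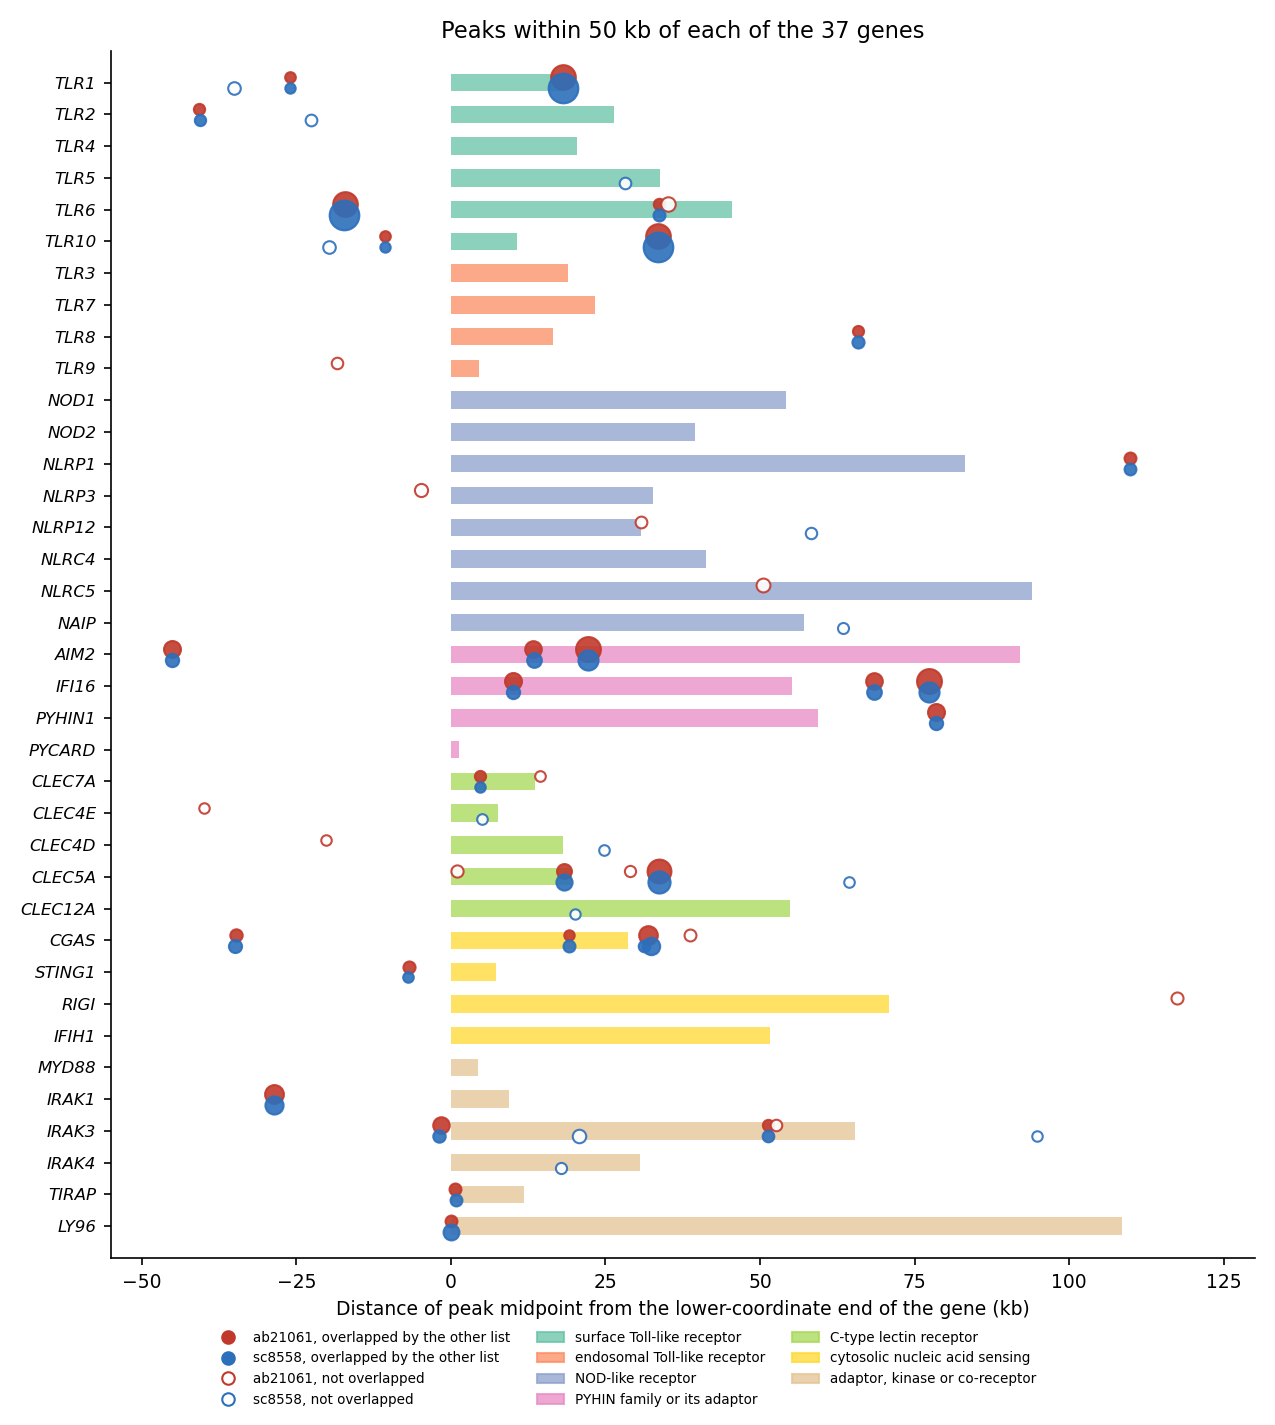
Peaks within 50 kb of each gene, by distance of the peak midpoint from the lower-coordinate end of the gene in kb. Horizontal bars are gene spans coloured by role, circles are peaks (red ab21061, blue sc8558; filled where overlapped by the other list) and circle area grows with score. The map shows 17 genes with a shared region and 9 genes with no peak of either list.

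Among the surface Toll-like receptors, 3 of 6 had a peak within 10 kb and 2 had a shared region. The shares of all protein-coding genes were 21.7% and 12.8%. By the worse of its ranks in both lists, the region at TLR1 stood first among the shared regions within 50 kb of the set. TLR1, which pairs with TLR2 to sense bacterial lipopeptides, had this region across its higher-coordinate end, on chromosome 4 from 38804948 to 38806444. It scored 512.89 with ab21061 (rank 201 of 7687) and 762.77 with sc8558 (rank 78 of 7562), so both antibodies placed it near the top of their lists. The peak midpoints lay 0.052 kb and 0.009 kb outside the gene span.

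TLR6, the other partner of TLR2 in lipopeptide sensing, lies beside TLR1. A shared region from 38856027 to 38856981 on chromosome 4 reached over part of the promoter window printed above, with scores of 72.16 (ab21061) and 84.34 (sc8558). The midpoints lay 0.313 and 0.294 kb downstream of the transcript start. An ab21061 peak without overlap followed from 38857365 to 38858534, on the upstream side of that start, with a higher score of 144.8. The edge of the sc8558 peak was 0.416 kb away from it. TLR10, the third gene of this cluster, had no peak within 10 kb, and its nearest ones, a shared pair at 10.6 kb, scored 56.89 (rank 6328 of 7687) and 51.02 (rank 7326 of 7562), low in each list. The TLR1 region also lies within 50 kb of TLR6 and TLR10, so the cluster shares its highest peak.

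TLR5, the receptor for bacterial flagellin, had an sc8558 peak inside the gene on chromosome 1 from 223137300 to 223137945, with a score of 75.97, and the nearest ab21061 peak was 653 kb from it. TLR2 had none within 10 kb. A shared pair 40.7 kb upstream of its start scored 67.76 and 69.34, and an sc8558 peak 22.6 kb upstream scored 78.37. The shared pair lay nearer to an end of TMEM131L, at 6.90 kb. TLR4, the endotoxin receptor, was far from any peak, with the nearest at 364 kb in both lists.

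None of the 4 endosomal Toll-like receptors had a peak within 10 kb, where 21.7% of all protein-coding genes had one of either list. A count of 0 among so few genes is not read as a difference. TLR8, a sensor of single-stranded RNA, had a shared pair at 49.3 and 49.2 kb with scores of 65.7 and 87.72, just inside the wider window and 2.72 kb from an end of TMSB4X. Its neighbour TLR7, which also senses single-stranded RNA, was 82.1 and 82.0 kb from the same pair. For TLR9, a sensor of bacterial DNA, there was an ab21061 peak at 18.4 kb, inside ALAS1, with a score of 74.39. TLR3, which senses double-stranded RNA, had its nearest peaks at 471 kb (ab21061) and 555 kb (sc8558).

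Within 10 kb the NOD-like receptors had peaks of single antibodies only. Of the 8 genes, 4 had a peak there, where 21.7% of all protein-coding genes had one of either list. Shared regions were found for 0 of the 8, where 12.8% of all protein-coding genes had one. A count of 0 among so few genes is not read as a difference. NLRP12, reported in mice to dampen inflammatory signalling, had the ab21061 peak over its promoter on chromosome 19 from 53824016 to 53824807, with a score of 79.28. All 300 bases of the window were covered, and the nearest sc8558 peak lay 26.7 kb away with a score of 72.28. NLRP3, which forms an inflammasome on many danger signals, had an ab21061 peak 5.00 kb upstream of its start, on chromosome 1 from 247410521 to 247411826, with a score of 110.58. The nearest sc8558 peak was 237 kb from it.

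NLRC5, an activator of MHC class I genes, held an ab21061 peak on chromosome 16 from 57038962 to 57040949 with a score of 128.55, the highest of the peaks near this family. The sc8558 list had no peak within 50 kb of NLRC5. Its nearest peak there lay just outside that window, 57.2 kb from NLRC5, with a score of 325.47 (rank 432). NAIP, which recognises bacterial flagellin and secretion-system proteins, had an sc8558 peak 6.27 kb above its higher-coordinate end with a score of 63.45. NAIP lies in a duplicated stretch of chromosome 5 with near-identical copies, so the placement of reads there is uncertain. Beyond 10 kb, NLRP1, another inflammasome former, had a shared region at 26.6 kb with scores of 82.37 and 81.12. NOD1, NOD2 and NLRC4 had none within 50 kb. The nearest peaks of NOD1 were at 76.9 (ab21061) and 76.8 kb (sc8558), those of NOD2 at 656 and 414 kb, and those of NLRC4 at 331 and 115 kb.

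In the PYHIN family with its adaptor, 2 of 4 genes had a shared region within 10 kb: IFI16 and AIM2. The share of all protein-coding genes was 12.8%. Of their 3 shared regions, 2 lay at annotated transcript starts of these genes, inside the gene spans. The PYHIN family of interferon-inducible DNA sensors lies in a row on chromosome 1. AIM2, which builds an inflammasome on cytosolic double-stranded DNA, held 2 shared regions. The stronger, from 159076461 to 159078040, covered the whole promoter window with scores of 520.8 (ab21061, rank 195) and 325.62 (sc8558, rank 431). It was the highest-scoring ab21061 peak near any gene of the set. The midpoint of that ab21061 peak lay 69.9 kb from the higher-coordinate end of the gene span. The weaker, from 159067973 to 159068815, lay 8.40 and 8.34 kb downstream of the start with scores of 207.69 and 151.45.

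IFI16, a nuclear DNA sensor, held a shared region from 159009590 to 159010423 with scores of 217.21 and 114.67. Its midpoints lay 0.100 and 0.112 kb downstream of a transcript start, and the printed window was fully covered. A second window of IFI16 in the table had no peak. PYHIN1 had no peak of its own within 10 kb, and the IFI16 region was 19.1 kb from it. PYCARD, the adaptor that links such sensors to caspases, was just outside the wider window, with the nearest peaks at 51.1 kb (ab21061) and 51.0 kb (sc8558).

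**Figure D3:**
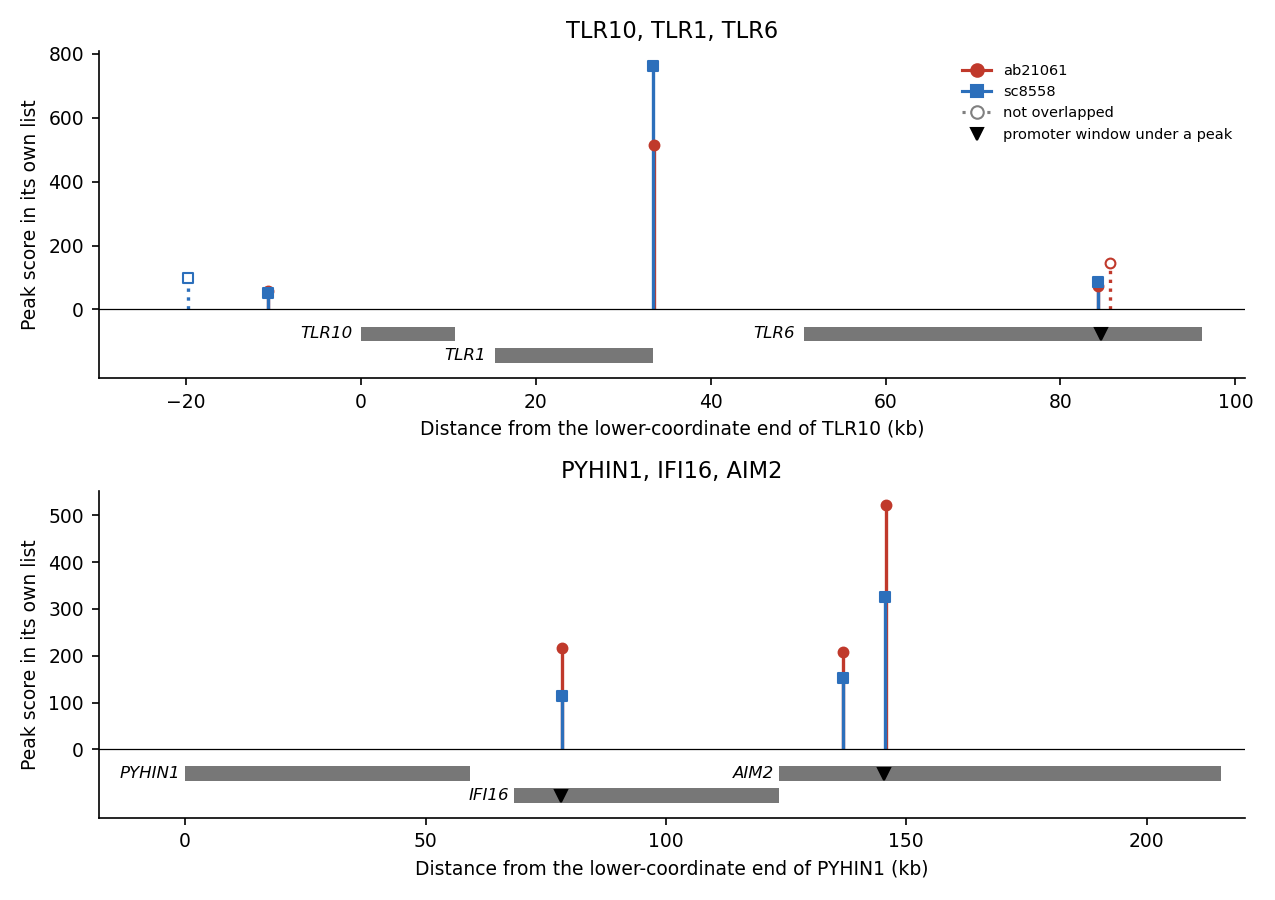
Peak scores, each within its own list, along the TLR10, TLR1 and TLR6 cluster (top) and the PYHIN1, IFI16 and AIM2 cluster (bottom), against distance in kb from the lower-coordinate end of the first gene. Red circles are ab21061, blue squares sc8558, open symbols peaks without overlap, grey bars gene spans and black triangles promoter windows under a peak. Scores reach 762.77 at the end of TLR1 and 520.8 at an annotated transcript start of AIM2, which lies inside its grey bar.

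Each of the 5 C-type lectin receptor genes had an sc8558 peak within 10 kb, where the share of all protein-coding genes was 17.8%. With ab21061 it was 2 of the 5, where the share of all genes was 17.4%. A shared region lay there for 2 of them, where the share of all genes was 12.8%. CLEC4E and CLEC4D had the same sc8558 peak. Apart from that of CLEC5A, these sc8558 peaks scored 50.54 to 56.21, near the lowest score of the list of 50.01. CLEC5A, a receptor of myeloid cells that couples to the adaptor TYROBP, had the most peaks of this family. A shared region inside it on chromosome 7, from 141945184 to 141946079, scored 156.5 (ab21061) and 192.58 (sc8558) and lay 1.32 and 1.34 kb downstream of the start. The ab21061 list had 2 further peaks within 10 kb without overlap, with scores of 89.13 inside the gene and 67.9 at 9.35 kb upstream. Upstream at 14.0 kb stood a stronger shared region, from 141960489 to 141961516, with scores of 475.59 and 403.45, and ranks of 240 and 307. Its nearest protein-coding gene end was that of TAS2R38, a taste receptor gene, at 11.6 kb.

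CLEC7A, the receptor for fungal beta-glucan also called Dectin-1, held a shared region on chromosome 12 from 10121095 to 10121835 with low scores of 67.12 and 53.26. An ab21061 peak without overlap lay 0.826 kb from its higher-coordinate end with a score of 56.76. CLEC12A, an inhibitory receptor and a surface marker of myeloid leukemia, had the sc8558 peak over its promoter from 9971084 to 9971569. That peak scored 50.54, near the lowest score of its list of 50.01, and the nearest ab21061 peak was 150 kb away. CLEC4E, a receptor for mycobacterial glycolipid, and its neighbour CLEC4D, which pairs with it, shared a single sc8558 peak from 8537916 to 8538540 with a score of 56.21. It lay inside CLEC4E, 2.68 kb downstream of the start, and 6.53 kb from CLEC4D.

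For cytosolic nucleic acid sensing, 2 of 4 genes had a shared region within 10 kb: CGAS and STING1. The share of all protein-coding genes was 12.8%. The RNA sensors RIGI and IFIH1 had none within 50 kb, which is not read as a difference among so few genes. CGAS, which makes a cyclic dinucleotide when it binds DNA, had 2 shared regions within 10 kb. The one beyond its higher-coordinate end, on chromosome 6 from 73454519 to 73456544, was a single ab21061 peak with a score of 273.94 and a pair of sc8558 peaks with scores of 75.62 and 229.85. The other, inside the gene from 73442430 to 73443155, scored 52.69 with ab21061 (rank 7086) and 83.98 with sc8558 (rank 3642). A further ab21061 peak, inside MTO1 and just beyond the 10 kb limit, scored 82.76.

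STING1, the receptor for that dinucleotide, had a shared region on chromosome 5 from 139468283 to 139469174, at 6.78 and 6.86 kb, with scores of 86.54 and 55.23. The nearest gene end was that of SMIM33, at 2.28 kb. RIGI had only an ab21061 peak within 50 kb, at 46.6 kb and inside NDUFB6, with a score of 85.25. An sc8558 peak lay just outside the wider window, 53.5 kb from RIGI, with a score of 290.6 (rank 537). IFIH1 had its nearest peaks at 276 kb (ab21061) and 153 kb (sc8558).

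Of the adaptors, kinases and co-receptors, 3 of 6 had a shared region within 10 kb: IRAK3, TIRAP and LY96. The share of all protein-coding genes was 12.8%. IRAK3, a family member that restrains Toll-like receptor signalling, had the most peaks, 3 of each list. A shared region 1.65 and 1.99 kb upstream of its start, on chromosome 12 from 66186723 to 66188403, scored 203.59 and 94.36. A second shared region deep in the gene, from 66240077 to 66240774, scored 69.1 and 77.54. Peaks without overlap inside the gene were an ab21061 peak with a score of 74.54, 0.595 kb from that region, and an sc8558 peak with a score of 119.39, 20.7 kb downstream of the start.

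TIRAP, which bridges TLR2 and TLR4 to MYD88, had a shared region at its lower-coordinate end on chromosome 11 from 126283088 to 126284519, with scores of 83.53 and 82.57. LY96, the co-receptor that binds endotoxin with TLR4, had one across its lower-coordinate end on chromosome 8 from 73990915 to 73991773. There the scores were 81.95 with ab21061 (rank 3874) and 184.57 with sc8558 (rank 1103), so the region ranked in the middle of the ab21061 list and within the top 14.6% of the sc8558 list. IRAK4, the kinase that acts first after MYD88, held an sc8558 peak with a score of 66.76. IRAK1 had a shared region at 28.6 and 28.5 kb, inside TMEM187, with scores of 278.08 and 255.06. MYD88 itself was 376 and 646 kb from the nearest peaks.

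**Figure D4:**
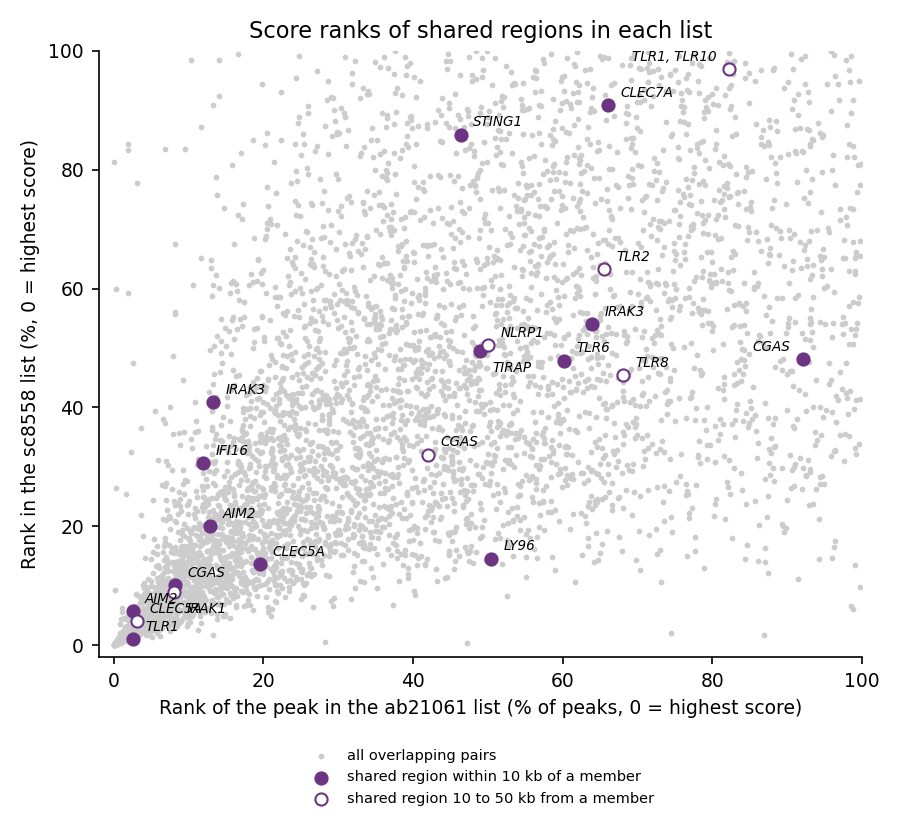
Rank of each shared region by score, in percent of the peaks of its list (0 is the highest score), in the ab21061 list (horizontal) and the sc8558 list (vertical). Filled circles are 14 shared regions within 10 kb of a gene of the set, open circles 7 at 10 to 50 kb, and grey dots all overlapping pairs. The regions at TLR1 and at the annotated AIM2 transcript start, and the one 14.0 kb upstream of CLEC5A, lie near the corner of high scores in both lists.

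In all there were 14 distinct shared regions within 10 kb of the set and 21 within 50 kb. Of the 14, midpoints of 9 lay inside a gene of the set, and for 11 the nearest protein-coding gene end belonged to the set. Such ends are outer ends of gene spans, so transcript starts inside a span are not measured. The regions over the promoter windows of IFI16 and TLR6 had PYDC5 and FAM114A1 as nearest, and both AIM2 regions had IFI16. Of the 7 between 10 and 50 kb, the nearest end belonged to the set for 2, near NLRP1 and TLR10. A region counted for a gene at that distance may therefore stand closer to another gene. The one of the 7 not described above lay 34.8 kb from CGAS, inside OOEP, with scores of 92.93 and 110.79. Scores reached 100 in both lists for 6 of the 14 and for 8 of the 21. Over single peaks of the whole lists, 37.7% (ab21061) and 37.4% (sc8558) scored 100 or more. The share over all shared regions was not counted, so these counts are not read as high or low.

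Other genes of these pathways, 50 in number, were read by the same windows. Within 10 kb, 19 of the 50 had an ab21061 peak (38%), 16 an sc8558 peak (32%) and 13 a shared region (26%), where the shares of all protein-coding genes were 17.4%, 17.8% and 12.8%. Per length of window they had 8.78 ab21061 and 6.67 sc8558 peaks per Mb. TAB2, an adaptor that ties ubiquitin chains to the kinase encoded by MAP3K7, held a shared region with scores of 654.92 (ab21061) and 618.4 (sc8558). In MAP3K7 itself a shared region scored 837.67 and 435.45. IRF5, a transcription factor downstream of Toll-like receptors, followed with 257.03 and 402.24.

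Next by the worse of both ranks were the lectin genes CLEC6A and CLEC4A, while CLEC4C, a further lectin gene read, had no shared region within 10 kb. CLEC6A, the fungal receptor Dectin-2, had a shared region 2.76 kb outside the gene with 234.23 and 239.56, and CLEC4A, an inhibitory lectin, held one with 208.05 and 213.15. FCER1G, the signalling chain of several activating lectins, held one with 174.65 and 192.76. CARD8, an inflammasome former, had 2, the higher lying 0.231 kb outside the gene with 206.88 and 253.07, and RIPK2, the kinase used by NOD1 and NOD2, had one 0.806 kb outside the gene with 114.71 and 161.86.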

How the data were processed

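Chromatin immunoprecipitation sequencing of NB4 cells gave 2 peak lists, 1 per antibody. The submitters' processing notes name build hg38, the aligner Bowtie2 2.2.9 and the caller MACS 1.4.2. Not given in the sources used here are settings, filters on reads and the control used in calling. For each peak the authors deposited a score, which in MACS grows with the negative log of a p-value, and scores were ranked within a list only.

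Positions were set to count from 1. Gene spans and transcript starts came from RefSeq tables of GRCh38.p14, the same assembly. A gene had a shared region when an ab21061 and an sc8558 peak overlapped by 1 bp or more and both midpoints lay in its window. Merged windows gave peaks per Mb, with exact Poisson 95% intervals. Genes and lists were chosen with earlier results of these data known. Every gene with a peak within 10 kb is named with the scores of those peaks, and coordinates and ranks are given for some. Of other pathway genes, the 8 best by the worse of both ranks are given. Counting was tested on simulated peaks. The tools were scipy 1.17.1, numpy 2.4.6, matplotlib 3.10.9 and pandas 2.3.3 under Python 3.11.15. Alternatives were a score of 100 or more, other windows, stricter overlap and neighbours counted once.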

Additional observations from a re-analysis of the deposited data

How the results depend on the processing

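Of 48 recomputed values, 33 stayed within 1.5 times the count or within the interval of the value and 15 did not. The cause was by construction, since fewer peaks or wider windows entered. At a score of 100 or more, the genes with a peak within 10 kb were 9 (ab21061), 7 (sc8558), 10 (either list) and 5 (shared), where 8.41%, 8.33%, 10.3% and 6.29% of all protein-coding genes had one. Within 50 kb they were 12, 11, 13 and 9, where the shares of all genes were 16.3%, 16.5%, 19.9% and 12.6%. Densities at that score were 4.93 and 3.94 peaks per Mb within 10 kb and 2.66 and 2.44 within 50 kb, where all genes had 1.15, 1.12, 1.13 and 1.11. With gene spans alone, 9 genes had an ab21061 peak and 13 a peak of either list, where the shares of all genes were 11.6% and 14.5%. Within 100 kb 26 had a shared region, where 35.8% of all genes did. Any overlap with the window, 50% overlap of both peaks and neighbours counted once moved no count by over 1.5 times. No paired analysis was possible because each antibody had 1 library and no result comes from a test. Depth is unknown, so a peak missing from a list does not show that binding was absent.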
